A study of Mus musculus with 24 samples.

Results

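The 7 genes followed here belong to the acute-phase and interleukin-1 (IL-1) response and were measured in mouse cortex after stroke: A2m, Ptx3, Lcn2, Serpina3n, Cp, Il1rn and Il1r1. They were chosen by name from genes with large increases in PI over CL libraries in these same data, so their PI over CL values are given here as a description with no test. All 7 members were listed among the 14769 genes of the 4 deposited tables. A2m, Serpina3n, Cp and Il1r1 stood in all 4 tables, Lcn2 in 3 (not in that of the CL libraries of both genotypes), and Ptx3 and Il1rn in 2 (PI WT with CL WT, and PI KO with PI WT).

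The libraries came from cortex of male mice aged 3 to 4 months of the strain labelled C57BL/6N-Cdr1asem1Nikr, after transient middle cerebral artery occlusion (tMCAo; 1 h of occlusion by a filament, then 1 day of reperfusion). Wild-type (WT) animals and animals lacking ciRS-7 (KO), a circular RNA also called Cdr1as, each gave a CL and a PI library, with 6 animals per genotype and 24 libraries in 4 groups. CL and PI are used here as the labels write them. All groups had the surgery and the same strain label, and no group from unoperated animals was analysed here. Both genotypes bear the strain label of the engineered allele, and the labels do not say whether the KO animals descend from 1 founder.

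The acute-phase response is the change in secreted proteins that follows injury and infection. It is best known in liver, where IL-6-type cytokines acting through STAT3, and IL-1 acting through NF-kappaB and C/EBP factors, raise the transcription of plasma proteins; reactive astrocytes and vascular cells of the injured brain express several of the same genes. IL-1 signals through its receptor IL1R1 with the accessory chain IL1RAP, and the IL-1 receptor antagonist encoded by Il1rn occupies that receptor without signalling. Among the members, A2m encodes alpha-2-macroglobulin and Serpina3n a serine protease inhibitor, both extracellular protease inhibitors. Ptx3 encodes a long pentraxin of the fluid-phase innate response, Lcn2 a lipocalin that binds iron-loaded siderophores, and Cp ceruloplasmin, a copper-carrying ferroxidase.

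The targeted transcript followed the labels, with Cdr1as deposited at 2558 to 3890 CPM (read counts scaled to the total of the library) in the WT libraries and at no more than 0.166 CPM in the KO libraries. Defining markers of neurons, astrocytes, microglia, oligodendrocytes and endothelium were all listed, along with 4 of 6 striatal markers. The depth read from the smallest steps of low values was lowest in a CL KO library at 3.75 M reads (M, mega). This depth depends on the scaling of each table, and the same library read 3.83 M in another. CL KO libraries reached 10.5 M reads, PI KO libraries spanned 5.27 to 7.08 M, those of CL WT 5.84 to 8.40 M, and those of PI WT 6.12 to 9.89 M. A single read was thus worth most in the shallowest CL KO library, animal 6, where 3 reads made 0.800 CPM; in CL WT the highest such limit was 0.514 CPM. At 2 times the depth read for animal 6, which would put its limit at 0.400 CPM, 98.5% of its 198 low values that came out whole would be even counts. Before deposit, each group's extreme values were replaced by its quartiles, so that the lowest pair and the highest pair of the 6 libraries are tied. The values of the 4 inner libraries can be recovered from them, and those of the lowest and the highest library cannot. Group levels below are trimmed means of the 4 recoverable log2 CPM values, converted to CPM, and "range" means the range of those 4 values.

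Promoter sequence was examined because 3 classes of factor are textbook inducers of these genes. RefSeq start sites on GRCm38.p6 gave an entry for 6 of the 7 members (10 entries in all; A2m is named only). The 250 bases before each start were searched on both strands for TTCNNNGAA (the STAT motif), GGG and CC separated by any 5 bases (the NF-kappaB motif) and TTGCNNAA (the C/EBP motif). The C/EBP letters occurred in 4 of the 10 entries, against 9.56% of all 32851 mouse promoter entries. NF-kappaB letters occurred in 6 of the 10, against 45.8% of all entries. The STAT letters occurred in 0 of the 10, against 7.02%. Entries of Cp overlap each other, as do some of Il1rn, so the 10 are not separate promoters. The C/EBP matches of Lcn2 and Cp lie in annotated exons, as do the NF-kappaB match of Cp and 1 of those of Il1rn. Shown here are the stretches that overlap no annotated exon, for 4 of the 5 members with the largest PI over CL differences, 5′ to 3′ on the strand of the gene, with the matched letters in capitals.
Ptx3, chr3:66219637-66219886, plus strand: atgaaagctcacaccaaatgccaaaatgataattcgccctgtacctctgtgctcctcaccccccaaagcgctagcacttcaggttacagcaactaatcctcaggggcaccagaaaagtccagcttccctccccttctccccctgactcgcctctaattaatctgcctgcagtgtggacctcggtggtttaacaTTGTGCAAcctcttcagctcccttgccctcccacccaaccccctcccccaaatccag
Lcn2, chr2:32387798-32387850, minus strand: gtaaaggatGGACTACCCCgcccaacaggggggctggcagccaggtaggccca
Serpina3n, chr12:104406458-104406707, plus strand: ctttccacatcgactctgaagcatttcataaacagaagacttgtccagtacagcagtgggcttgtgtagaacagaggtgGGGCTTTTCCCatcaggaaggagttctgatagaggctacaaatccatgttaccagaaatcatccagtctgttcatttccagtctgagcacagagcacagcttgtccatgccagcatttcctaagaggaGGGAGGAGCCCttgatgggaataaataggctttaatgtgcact
Il1rn, chr2:24336610-24336852, plus strand: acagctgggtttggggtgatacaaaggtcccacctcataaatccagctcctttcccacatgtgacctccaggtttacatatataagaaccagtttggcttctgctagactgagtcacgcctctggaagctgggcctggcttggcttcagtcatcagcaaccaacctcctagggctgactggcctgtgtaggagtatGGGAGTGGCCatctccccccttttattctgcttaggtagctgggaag
The capitals mark a C/EBP match for Ptx3 and NF-kappaB matches for the other 3 genes. The C/EBP match of Lcn2 lies outside the stretch shown. In Serpina3n each of the 2 capital runs holds a match on both strands that overlap each other. A match describes letters in a window and shows neither a bound site nor a cause of any change.

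Because the KO animals lack ciRS-7, which is known for binding miR-7, the 3′ untranslated regions of the members were searched for the 7 bases that pair with the miR-7 seed. The seed (bases 2 to 8, in capitals) is shared by both mouse miR-7 forms.
mmu-miR-7a-5p: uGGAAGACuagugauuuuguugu
mmu-miR-7b-5p: uGGAAGACuugugauuuuguuguu
The matching letters GTCTTCC occurred in the 3′ untranslated region of 0 of the 7 members, whose lengths ran from 119 bases in A2m to 3864 bases in Il1r1. Among 12634 listed genes with such a region, 14.6% held at least 1 match, and the median length was 1307 bases.

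The acute-phase genes lay at different baselines in CL WT cortex. On the CPM scale Cp was the highest at 31.7 CPM, followed by Serpina3n at 13.2, Il1r1 at 6.61, A2m at 4.66 and Lcn2 at 1.29. Ptx3 and Il1rn lay at the bottom of the table. Their deposited CL WT values were treated as at or near the detection limit, because 3 of the 4 recoverable Ptx3 values were below 0.514 CPM and all 6 deposited Il1rn values stood at the table floor of 0.001 CPM.

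**Figure D1:**
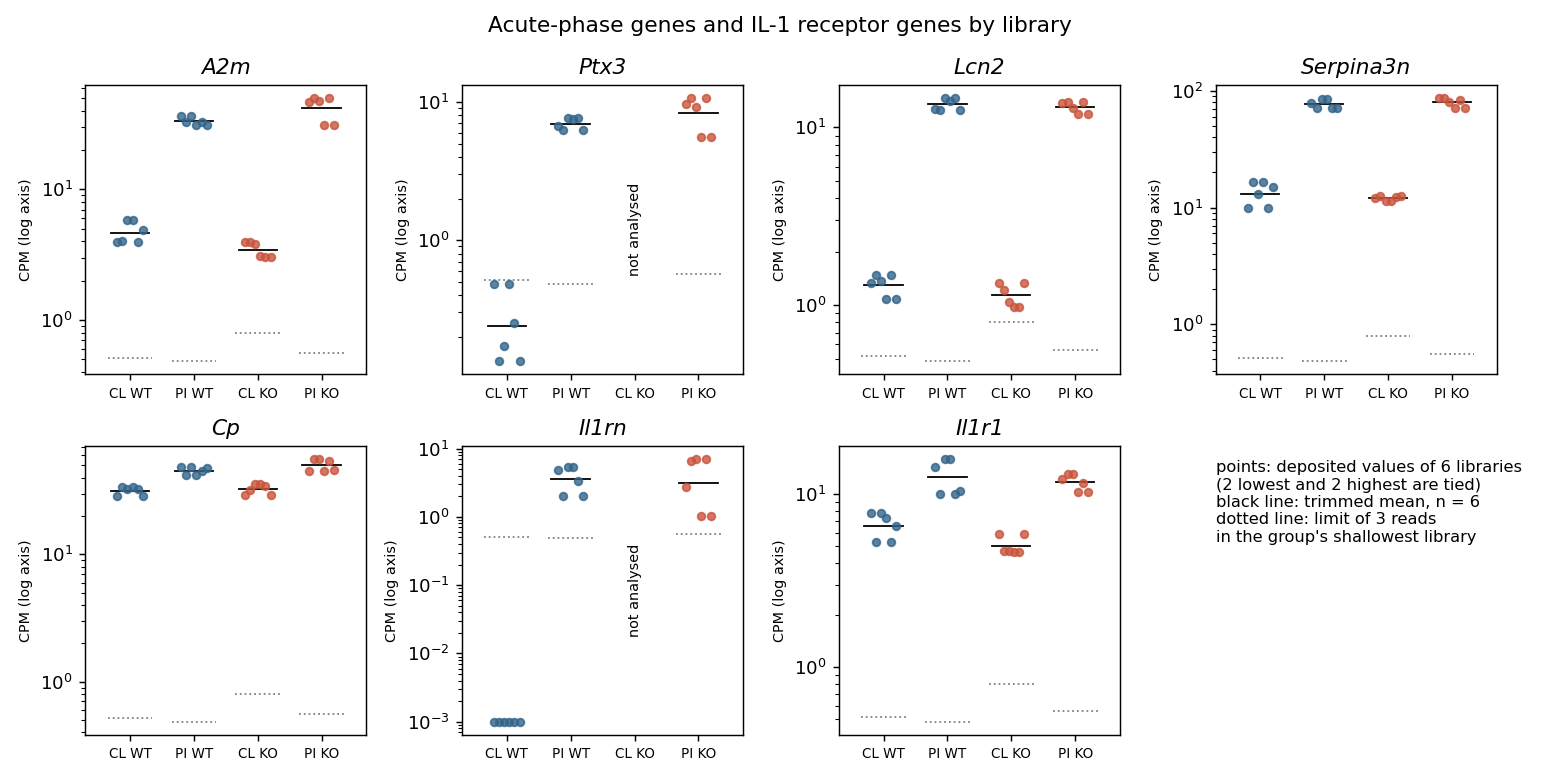
CPM (log axis) of each gene in the 6 libraries of each group, as deposited, with the trimmed mean as a black line and the limit of 3 reads in the group's shallowest library as a dotted line. PI values lie above CL values for every gene within each genotype shown, and Il1rn in CL WT lies at the table floor; Ptx3 and Il1rn were not analysed in CL KO, and their PI KO values come from the table of PI KO and PI WT.

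Divided by the exon length of each gene, the order of levels was different. Serpina3n was the highest in CL WT at 6.39 CPM per kilobase (range 4.34 to 8.19), followed by Cp at 3.31 (2.91 to 3.60). Il1r1 followed at 1.04 CPM per kilobase (0.783 to 1.25), and A2m at 0.664 (0.557 to 0.882) overlapped with both Il1r1 and Lcn2 at 0.492 (0.385 to 0.577). In PI WT Serpina3n lay at 37.2 CPM per kilobase (34.2 to 41.9), far from the next genes. Lcn2 at 5.14 (4.74 to 5.65), A2m at 4.77 (4.39 to 5.37) and Cp at 4.75 (4.27 to 5.07) overlapped in range. Ptx3 at 2.60 CPM per kilobase (2.27 to 2.84) and Il1r1 at 1.97 (1.55 to 2.61) also overlapped, and the antagonist Il1rn was the lowest at 0.644 (0.314 to 1.02). Lengths are the union of all annotated exons, which is longer than any 1 transcript.

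Among the protease inhibitors, A2m (ENSMUSG00000030111, chr6:121635376-121679227, plus strand, GRCm38) had recoverable CL WT values from 3.91 to 6.19 CPM with a median of 4.42. Its PI WT values ran from 30.8 to 37.7 CPM with a median of 32.9, so the lowest recoverable PI library was 4.98 times the highest recoverable CL library. The difference of trimmed means was 2.84 ± 0.18 on the log2 scale (SE, n = 6 libraries per group), or 7.18-fold with a 95% interval of 5.52 to 9.35. Here and for the other members, the SE and interval did not use the pairing of CL and PI libraries by animal. In KO animals A2m had CL values of 3.01 to 3.97 CPM and PI values of 27.2 to 50.9 CPM, a difference of 3.60 ± 0.23, or 12.1-fold (8.54 to 17.3). The KO groups did not overlap. The PI KO range of A2m was 0.90 on the log2 scale, more than in 99.5% of the 2221 genes within 0.5 of its level. A larger difference was seen in 30 of 14489 genes in WT and in 8 of 14338 in KO, ranks that follow from the choice of the members.

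Serpina3n (ENSMUSG00000021091, chr12:104406729-104414329, plus strand) was the member with the highest PI level in CPM. Its CL WT values ran from 8.96 to 16.9 CPM (median 14.1) and its PI WT values from 70.6 to 86.5 CPM (median 75.4), a difference of 2.54 ± 0.21, or 5.82-fold (4.26 to 7.96). In KO cortex the values ran from 11.2 to 12.7 CPM in CL (median 12.2) and from 68.9 to 88.0 CPM in PI (median 81.6), 6.60-fold (5.63 to 7.74). CL and PI libraries did not overlap in either genotype. The CL WT range of Serpina3n was wide: its recoverable values differed by 0.92 on the log2 scale, more than in 99.3% of the 2199 genes within 0.5 of its level. The CL KO range was 0.19, more than in 21.6% of its 2212 neighbours. Serpina3n is 1 of a cluster of closely related Serpina3 genes. Reads shared with its relatives may have been split or lost in counting, which was not examined here.

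Lcn2 (ENSMUSG00000026822, chr2:32384633-32388252, minus strand) was low in CL cortex. Its CL WT values ran from 1.01 to 1.51 CPM (median 1.35), above the limit of 3 reads, and its PI WT values ran from 12.4 to 14.8 CPM (median 13.4). This was a difference of 3.38 ± 0.20, or 10.4-fold (7.78 to 14.0), and the lowest PI value was 8.21 times the highest CL value. In KO cortex the values ran from 0.952 to 1.38 CPM in CL and from 11.7 to 13.9 CPM in PI, 11.4-fold (8.43 to 15.5). The PI groups of both genotypes were tight, with highest over lowest recoverable values of 1.19-fold.

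Ptx3 (ENSMUSG00000027832, chr3:66219910-66225805, plus strand, overlapping the oppositely oriented gene Veph1) had recoverable CL WT values of 0.123, 0.172, 0.253 and 0.591 CPM, and 1 of them exceeded the limit. In PI WT it ran from 6.09 to 7.62 CPM with a median of 7.11. The PI WT level was 13.5 times the limit of 3 reads in the shallowest CL WT library, and the lowest recoverable PI value was 10.3 times the highest recoverable CL value. The fitted ratio of trimmed means, 29.4 (12.8 to 67.5), rests on CL values under that limit. In PI KO Ptx3 ran from 4.74 to 11.0 CPM with a median of 9.50, and the CL KO level was not analysed here.

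Cp (ENSMUSG00000003617, chr3:19957054-20009145, plus strand, overlapping the oppositely oriented gene Hps3) had the smallest difference between PI and CL of the 7 members and the highest CL level. Its CL WT values ran from 27.8 to 34.4 CPM (median 32.5) and its PI WT values from 40.8 to 48.5 CPM (median 46.4), a difference of 0.52 ± 0.10, or 1.43-fold (1.23 to 1.67). In KO cortex the values ran from 28.8 to 36.0 CPM in CL (median 33.2) and from 45.3 to 57.3 CPM in PI (median 49.9), 1.54-fold (1.29 to 1.84). The groups did not overlap within either genotype. As many as 798 of 14489 genes had a larger increase in WT and 518 of 14338 in KO. The strand setting of the authors' counting is not given in the sources used here, so reads of Cp and Hps3, or of Ptx3 and Veph1, cannot be told apart where the genes overlap.

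In the IL-1 system, the antagonist Il1rn (ENSMUSG00000026981, chr2:24336853-24351494, plus strand) was listed at the floor in all 6 CL WT libraries, although the true value of the highest library cannot be recovered. In PI WT its recoverable values were 1.74, 3.39, 4.85 and 5.65 CPM, with a trimmed mean of 3.57 CPM. With the limit of 3 reads in the shallowest CL WT library in place of the CL level, Il1rn was at least 6.94-fold higher in PI WT. In PI KO the 4 recoverable values were 0.760, 2.73, 6.69 and 7.22 CPM, a 9.50-fold spread, against 3.25-fold in PI WT. Both spreads were wide for the level: 99.8% of the 1652 genes within 0.5 log2 of its PI KO level, and 99.4% of the 1760 such genes in PI WT, had a smaller range.

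The receptor Il1r1 (ENSMUSG00000026072, chr1:40225080-40317257, plus strand, overlapping the unverified gene model Gm38070) was present in CL cortex of both genotypes. Its CL WT values ran from 4.98 to 7.97 CPM (median 6.93) and its PI WT values from 9.84 to 16.6 CPM (median 12.3), a difference of 0.92 ± 0.24, or 1.90-fold (1.33 to 2.71). In KO cortex it ran from 4.59 to 6.39 CPM in CL (median 4.71) and from 9.82 to 13.4 CPM in PI (median 12.0), a difference of 1.21 ± 0.18, or 2.32-fold (1.77 to 3.04). The lowest recoverable PI value exceeded the highest CL value by 1.24-fold in WT and 1.54-fold in KO.

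The deposited PI and CL values of all 7 members in WT, and of all 5 members listed in KO, did not overlap. That holds by their choice; such a higher PI group was seen in 16.5% of all genes in WT and 17.1% in KO. The test across all genes called 10.6% of genes different in WT (5.2% higher and 5.4% lower in PI) and 10% in KO (5.11% higher and 4.94% lower), and it is not applied to the members. A limma fit with the animal as a block, which takes the values as deposited, gave 6614 calls for WT and 6759 for KO.

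Genotype was the contrast that did not choose the members. In CL cortex, 0 of the 4 listed members passed the test between KO and WT (moderated trimmed-mean test through limma with Benjamini-Hochberg adjustment over all genes, adjusted p under 0.05; background 0.0279% of genes called). None of the 4 had an unadjusted p under 0.05 either (background 5.73%), and limma on the deposited values called 2 (background 16.1%). A2m was 4.56 CPM in CL WT and 3.39 in CL KO, a difference of -0.43 ± 0.22 (95% interval -0.91 to 0.06, moderated trimmed-mean test, adjusted p = 0.878). Il1r1 was 6.46 and 4.95 CPM, a difference of -0.38 ± 0.21 (-0.85 to 0.08, moderated trimmed-mean test, adjusted p = 0.884). Serpina3n differed by -0.12 ± 0.21 (-0.58 to 0.34) and Cp by 0.05 ± 0.11 (-0.19 to 0.29). The recoverable A2m values of CL KO (2.95 to 3.90 CPM) and CL WT (3.83 to 6.04 CPM) overlapped at their ends.

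In PI cortex, 0 of the 7 members passed the same test (background 0.0208%). None had an unadjusted p under 0.05 (background 5.75%), and limma on the deposited values called 0 (background 16.5%). Among protease inhibitors, A2m was 42.9 CPM in PI KO and 34.1 in PI WT, a difference of 0.33 ± 0.22 (-0.14 to 0.80, moderated trimmed-mean test, adjusted p = 0.877). Serpina3n was 81.6 and 78.3 CPM (0.06 ± 0.11, interval -0.18 to 0.30), Lcn2 13.3 and 13.7 CPM (-0.05 ± 0.12, interval -0.30 to 0.21), and Cp 51.6 and 46.3 CPM (0.16 ± 0.11, interval -0.09 to 0.40). Ptx3 was 8.29 and 7.09 CPM (0.23 ± 0.29, interval -0.41 to 0.86). For the IL-1 system, Il1r1 was 12.0 and 12.8 CPM (-0.09 ± 0.21, interval -0.54 to 0.36). Il1rn was 3.16 and 3.63 CPM (-0.20 ± 0.81), with an interval of -1.96 to 1.56, the widest of the 7.

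Whether the PI minus CL difference depended on genotype was asked of the 5 members in both tables. None passed (0 of 5, background 0%; 1 had an unadjusted p under 0.05, background 4.55%, and limma on the deposited values called 1, background 13.7%). That member was A2m, whose KO difference exceeded the WT difference by 0.76 ± 0.32 (0.09 to 1.43, moderated trimmed-mean test, adjusted p = 0.992). With the animal as a block, on the deposited values, limma gave A2m an adjusted p of 0.00280 for this difference, in a fit that called 15.6% of all genes. The other 4 had smaller estimates: Il1r1 0.29 ± 0.32, Serpina3n 0.18 ± 0.26, Lcn2 0.13 ± 0.28 and Cp 0.10 ± 0.17, each with an interval that covers 0. A p that misses the threshold does not show that the genotypes were alike.

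**Figure D2:**
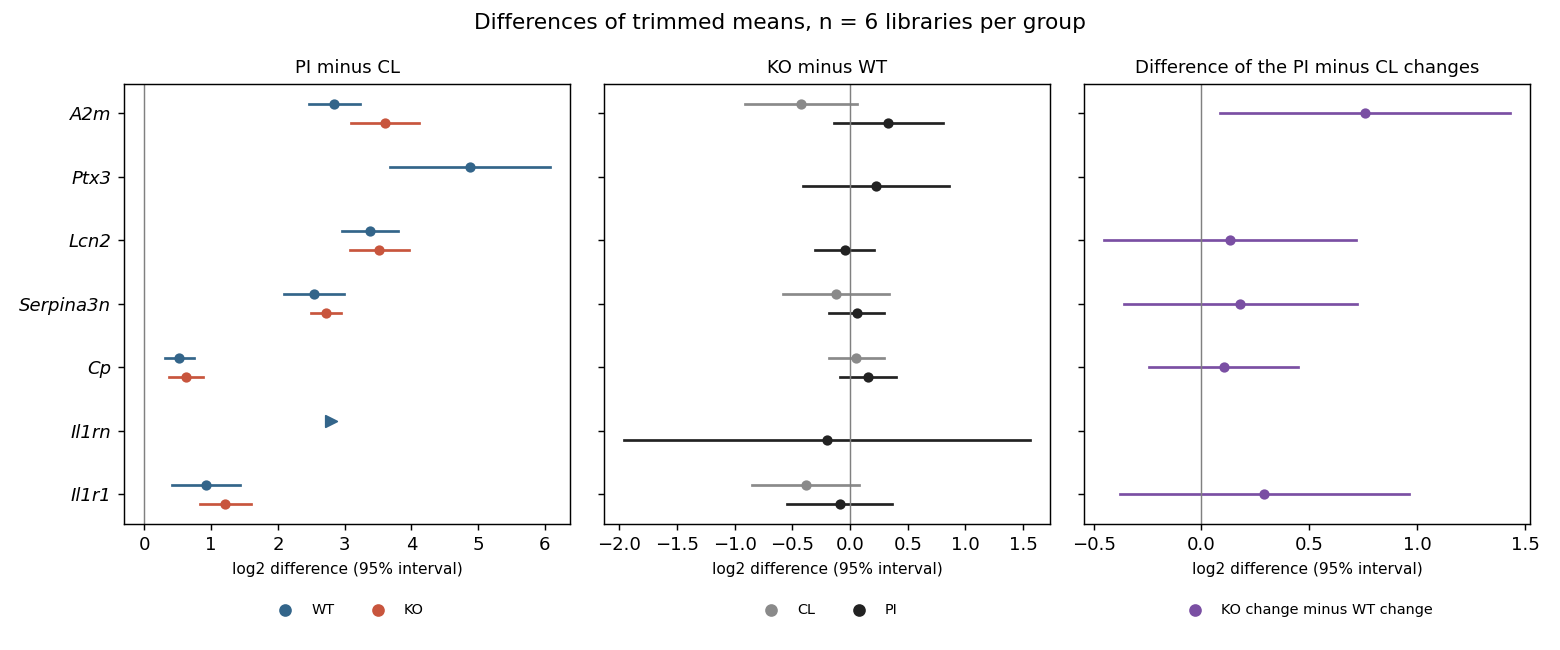
Log2 differences of trimmed means with 95% intervals, n = 6 libraries per group: PI minus CL by genotype (left), KO minus WT by tissue label (middle) and the KO minus WT difference of the PI minus CL differences (right). The left panel is a description of chosen genes; the triangle marks the 3-read lower bound of Il1rn, and the A2m interval in the right panel, 0.09 to 1.43, is the one that does not cover 0.

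Several members were low or high in the same PI animals. In PI KO, animals 4 and 6 together held the lowest pair of deposited values in 6 of the 7 members, all but Cp. The same pair was lowest in 7.66% of all genes and in 24.2% of the 727 other genes called higher in PI KO. This pattern was chosen after its values were seen. In PI WT, animal 3 was among the highest pair in 7 of 7 members, and animal 2 among the lowest pair in 6 of 7. Among the 747 other genes called higher in PI WT, animal 3 was in the highest pair in 46.6% and animal 2 in the lowest pair in 36.5%. Over all genes these shares were 32.7% and 33.8%. These animals, too, were picked after the values were seen.

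**Figure D3:**
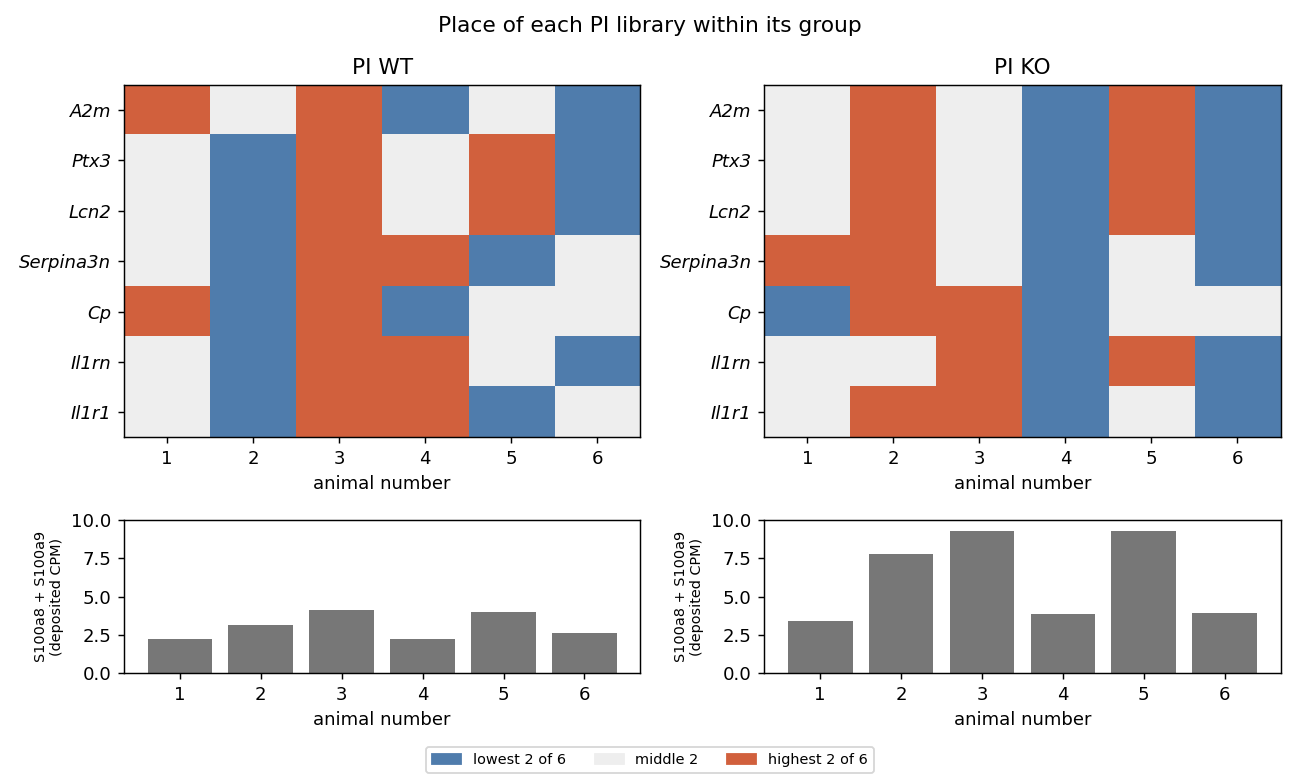
Place of each PI library within its group for the 7 members (upper panels; blue lowest pair of 6, grey middle pair, red highest pair) and the summed deposited CPM of S100a8 and S100a9 (lower panels, y axis from 0). PI KO animals 4 and 6 are blue in 6 of 7 rows, and the summed marker level in PI KO ranges from 3.39 to 9.32 CPM.

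Markers of other cell types were followed in the same libraries, as deposited values. Of 10 neutrophil markers, 2 (S100a8 and S100a9) were listed, and only in the table of PI KO and PI WT; the others, among them Ngp, Camp, Ly6g and Mpo, were not analysed here. Their summed level ran from 2.20 to 4.12 CPM in PI WT. In PI KO it was 3.39, 7.78, 9.32, 3.87, 9.32 and 3.93 CPM in animals 1 to 6. Animals 4 and 6 were among the 3 lowest and were the lowest pair for Il1rn (tied deposited value 1.05 CPM, lowest recoverable 0.760). Animal 1, with the lowest sum, was in the middle pair for Il1rn. In PI WT the highest Il1rn pair held animal 3, with the highest sum (4.12 CPM), and animal 4, with the lowest (2.20 CPM). Of 7 monocyte markers, Msr1 alone was listed, and the others, among them Ccr2 and Ly6c2, were not analysed here. Msr1 by itself does not identify monocytes. In WT it ran from 0.168 to 1.88 CPM in CL and from 16.3 to 20.9 CPM in PI. In KO it ran from 0.530 to 0.975 CPM in CL and from 20.4 to 23.1 CPM in PI. All 6 leptomeningeal fibroblast markers were listed, with summed levels of 21.1 to 29.0 CPM in CL WT and 40.7 to 49.1 CPM in PI WT, and of 29.3 to 36.6 and 43.8 to 54.0 CPM in KO. The test across all genes called 1 of these 6 higher in WT (Dcn) and 1 in KO, and none lower. It called 5.2% of all genes higher in WT and 5.11% in KO. In each genotype 5 of the 6 were higher and 1 lower, with a median log2 difference of 0.85 in WT and 0.10 in KO. Only Kl of 8 choroid plexus markers was listed. The part of these cells in the members' values was not tested, and in bulk cortex more cells of a type and more RNA per cell cannot be told apart.

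Some of the other acute-phase genes rose in PI libraries of both genotypes. Of 26 further positive acute-phase genes, 4 were in the WT table and 4 in the KO table. Of those, 2 rose in WT (C4b and Timp1) and 3 in KO (C4b, Timp1 and Serping1), by the test across all genes, and none fell. That test called 5.2% of all genes higher in WT and 5.11% in KO. Timp1, an inhibitor of matrix metalloproteases, rose by 2.71 ± 0.36 in WT and 2.59 ± 0.34 in KO on the log2 scale. C4b, a complement component, rose by 1.14 ± 0.22 and 1.55 ± 0.18. Serping1, the inhibitor of the C1 complement proteases, rose by 0.80 ± 0.21 in KO, with 0.66 in WT that did not pass. The CL WT level of Timp1, -0.19 on the log2 CPM scale, was near the limit of 3 reads. The list's median difference was 0.90 in WT and 1.18 in KO, beside 0.01 and 0.00 over all genes. Of the 4 negative acute-phase genes, Trf, the transferrin gene, rose by 1.18 ± 0.24 in WT and 1.41 ± 0.18 in KO, and Rbp4 did not pass (0.47 and 0.45).

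The IL-1 family moved unevenly. Il33, an alarmin, rose by 1.43 ± 0.17 in WT and 1.65 ± 0.16 in KO. The accessory chain Il1rap fell by 0.28 on the log2 scale in WT (SE 0.07), and its KO difference of -0.12 did not pass. Il1a, a ligand of IL1R1, was listed in KO with a PI level of 1.90 and a CL level of -1.53 on the log2 CPM scale, the latter under the limit. It passed the test there, with a fitted difference of 3.43 ± 0.53 that rests on few reads. The adapter gene Myd88 rose by 1.16 ± 0.22 in WT and 1.11 ± 0.32 in KO, 1 of 7 and 1 of 6 listed IL-1 signalling genes to pass. Of all genes, 10.6% passed in WT and 10% in KO. The ligand gene Il1b and the decoy receptor gene Il1r2 were not analysed here.

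Receptors and factors that induce acute-phase genes rose in part. In WT 6 of 15 listed genes rose and none fell, and in KO 7 of 15 rose and none fell. Over all genes, 5.2% were called higher and 5.4% lower in WT, and 5.11% and 4.94% in KO. Osmr, a subunit of the oncostatin M receptor, rose by 2.51 ± 0.24 in WT and 2.62 ± 0.20 in KO. Socs3, a feedback inhibitor of STAT3 signalling, rose by 2.43 ± 0.26 and 2.35 ± 0.29, Stat3 by 1.15 ± 0.09 and 1.18 ± 0.10, and Tnfrsf1a by 1.85 ± 0.16 and 1.96 ± 0.21. Cebpd, a C/EBP factor, rose by 1.28 ± 0.16 and 1.86 ± 0.14. The list's median was 0.31 in WT and 0.44 in KO, beside 0.01 and -0.00068 over all genes.

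Binding partners and relatives of the members had mixed directions. Of 10 listed, 2 rose and 2 fell in WT, and 3 rose and 1 fell in KO. The shares of all genes called higher and lower were 5.2% and 5.4% in WT, and 5.11% and 4.94% in KO. Fgf2, a growth factor bound by pentraxin 3, rose by 1.16 ± 0.13 and 1.14 ± 0.16, and the neuronal pentraxin Nptx2 by 1.19 ± 0.12 and 1.04 ± 0.22. Slc22a17, which encodes a receptor for lipocalin 2, fell by 0.21 in WT (SE 0.06), and its KO difference of -0.23 did not pass. Heph, a ferroxidase related to ceruloplasmin, fell by 0.62 in WT (SE 0.15), with a KO difference of -0.24 that did not pass. Lrp1, the clearance receptor of alpha-2-macroglobulin, did not pass in either genotype (0.03 and -0.22). Cd109, a relative of A2m, rose by 1.06 ± 0.19 in KO, with 0.65 in WT that did not pass.

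**Figure D4:**
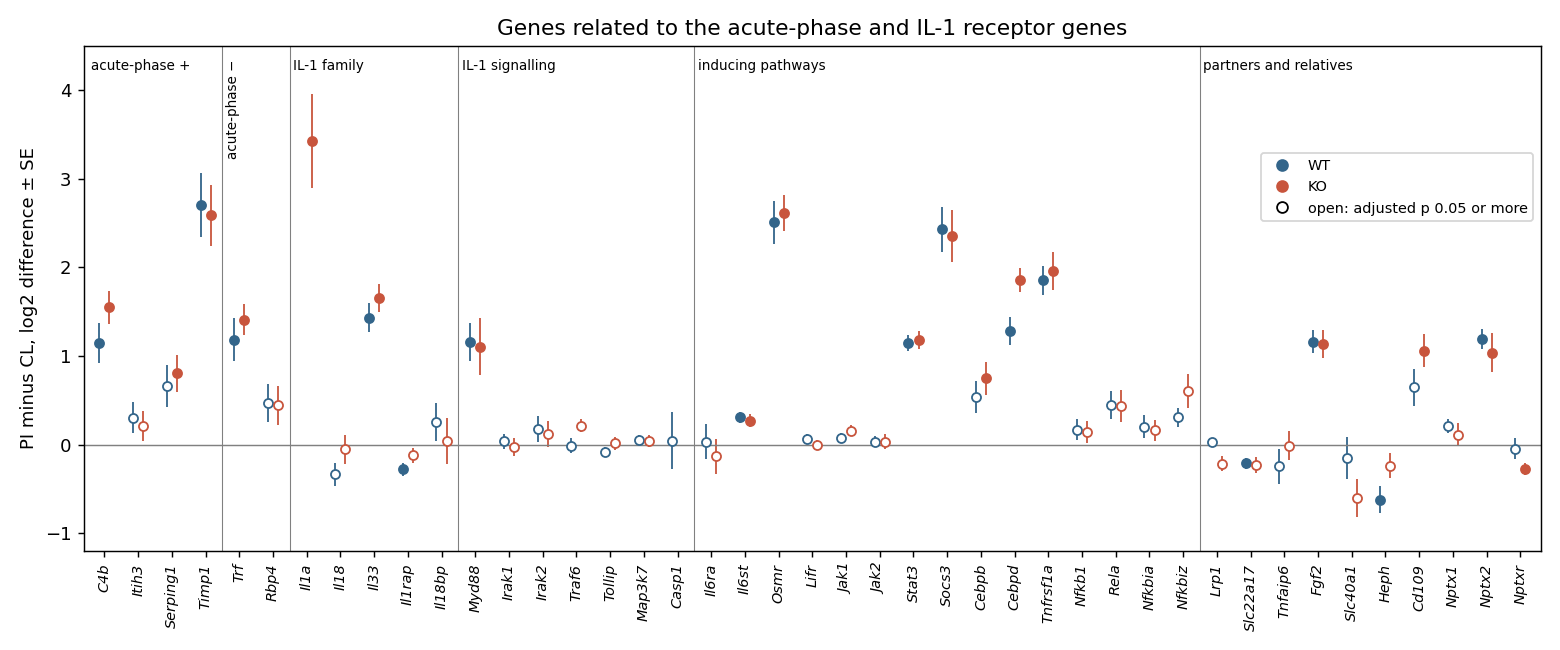
PI minus CL log2 difference ± SE (n = 6 libraries per group) of the listed genes of 6 lists of related genes, WT in blue and KO in red, filled where the adjusted p is below 0.05. Timp1, Osmr and Socs3 have the largest differences in WT, and Il1a, with a CL level under the limit of 3 reads, the largest in KO.

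None of these related genes passed the moderated trimmed-mean test between genotypes, while limma on the deposited values called 9 of 40 in CL (background 16.1%), 8 of 47 in PI (background 16.5%) and 4 of 41 in the interaction (background 13.7%). In the trimmed-mean test, 5 of 40 had an unadjusted p under 0.05 in CL (C4b, Il33, Traf6, Cebpd and Nptx2; background 5.73%), 3 of 47 in PI (Timp1, Il1a and Cd109; background 5.75%) and 2 of 41 in the interaction (Cebpd and Lrp1; background 4.55%). Il33 differed between CL KO and CL WT by -0.36 ± 0.10 (moderated trimmed-mean test, adjusted p = 0.597). Il1a differed between PI KO and PI WT by 0.90 ± 0.24 (moderated trimmed-mean test, adjusted p = 0.768).

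The genes with the pattern most like the mean profile of the 5 members in both tables, over 24 libraries, were Dab2 (Pearson r = 0.992), Osmr (0.991), Stat3 (0.990), Gfap (0.989) and Mt2 (0.989). Gfap, the intermediate filament gene of reactive astrocytes, differed between PI and CL by 1.88 ± 0.11 in WT and 2.19 ± 0.16 in KO. The 7 astrocyte markers followed here, which do not include Gfap, went mostly the other way. In each genotype 2 were higher and 5 lower in PI, with a median log2 difference of -0.18 in WT and -0.11 in KO. The 24 libraries behind the r values share animals and the PI and CL split, and 3.27% of all genes had r over 0.9.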

How the data were processed

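RNA-seq was measured in 24 cortex libraries (ribosomal RNA depletion of 600 ng, CORALL total RNA kit, per the labels' protocols). The authors deposited 4 tables of log2 CPM, each with 2 groups of 6 libraries, scaled separately; the build is mm10, per the submitters' processing notes. The aligner, annotation, counter, strand and read collapsing are not given in the sources used here. The deposited values are drawn in to group quartiles in every gene: the tied values equal 0.75 of the second and 0.25 of the third value from the end, which gives 4 recoverable values of 6. Depth was read from the spacing of low values, of which 72.2% to 90.3% per library were whole reads within 0.03 read. Limits are 3 reads and cover counting error only.

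Groups were compared within a table by the trimmed mean with Winsorized error (6 residual degrees of freedom, 12 for the interaction). Variances were moderated in limma 3.58.1 under R 4.3.3, with Benjamini-Hochberg adjustment over all genes. The test was tried on simulated independent groups only, which cover neither the interaction nor libraries paired by animal. Gene annotation was GENCODE on GRCm38, the same build. Labels say that CL and PI libraries of 1 animal number share an animal, and the correlation of same-animal deviations ranged from -0.17 to 0.31 in WT and from -0.01 to 0.17 in KO. The trimmed-mean intervals of PI against CL and the trimmed-mean interaction test did not use this pairing. The fits with the animal as a block did. KO and WT libraries share only a number. Members and gene lists were chosen with earlier results of these data known, and 1 gene of the lists is not reported here. Named genes are the members, the called and partner genes of 6 lists, and the 5 most alike genes. Alternatives were limma on deposited values, no trend, centring, a 1 CPM filter, log2(CPM + 0.5) and a replicate block.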

Additional observations from a re-analysis of the deposited data

How the results depend on the processing

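No result on a member reversed. Of the alternative values for genotype and interaction, 90 kept their side of the threshold and 6 passed it, all from fits on the drawn-in deposited values, which understate the spread. Without the block, limma there gave A2m adjusted p = 0.0332 in CL and 0.00667 for the interaction, and Il1r1 0.0356 in CL; with the replicate block, limma gave Il1r1 0.0297 in CL, and A2m 0.0365 in PI and 0.00280 for the interaction. Over the other alternatives the smallest adjusted p of a member was 0.856.

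Counts of genes called moved with the same fits. In CL KO against CL WT, 4 became 2311 (limma on deposited values) and 1868 (replicate block); in PI KO against PI WT, 3 became 2388 and 1800; in the interaction, 0 became 1940 and 2216; in PI against CL, 1537 became 6459 and 6614 in WT, and 1440 became 6666 and 6759 in KO. In the CL and in the PI comparison of genotypes 0 of 6 numbers had their best match in the library of the same number. With no trend in the prior the counts for PI against CL fell to 1015 in WT and 739 in KO. Centring each group on its median gene turned the split of 754 higher and 783 lower in WT into 636 and 1053, and 732 and 708 in KO into 589 and 1017.

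Of the PI minus CL differences of members, log2(CPM + 0.5) moved 4: Ptx3 to 3.28, Lcn2 to 2.96 in WT and 3.04 in KO, and Il1rn to 3.04. The Il1rn bound is 20.8-fold with a limit of 1 read and 4.16-fold with 5. Depth limits the CL levels of Ptx3 and Il1rn.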
